A study of Mus musculus with 8 samples.

Results

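The Zic genes encode zinc finger transcription factors of the cerebellum and dorsal midline that are relatives of the GLI proteins, the effectors of hedgehog signaling. They are known for their expression in the septum, the cortical hem and roof plate and the meninges, and they act in patterning of the medial forebrain and in keeping neural progenitors from early differentiation. The family members lie in the genome as divergent pairs, so that Zic1 has Zic4 as its neighbor on chromosome 9 and Zic2 has Zic5 as its neighbor on chromosome 14. Here the RNA of Zic1, Zic2, Zic4 and Zic5 was followed in the medial ganglionic eminence (MGE) of WT and Nkx2-1cKO (cKO) mice at E13.5. The 4 genes were chosen by symbol among the 17178 mouse gene symbols to which the array's probes matched, and 5 of the 41174 probes belong to them.

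MGE tissue came from C57BL/6 embryos, with 4 samples of WT and 4 of cKO and 1 sample per 1-colour array. The labels give the WT genotype as Nkx2-1flox/+;Olig2tva-cre- and the mutant genotype as Nkx2-1flox/+;Olig2tva-cre+. By these labels both groups carry a floxed Nkx2-1 allele and differ in the Cre, which is driven by Olig2. The labels thus name 1 floxed allele for the mutant, while the methods of the study name the strain Nkx2-1f/f. Nkx2-1 RNA on the mutant arrays averaged 1.24% of the WT level, as given below, and the genotype itself was not tested. The labels do not say whether samples are single embryos or pools or whether they are littermates, so p-values measure the spread between these samples. According to the methods, septum was removed in all MGE dissections, in a section that names RT-qPCR and primary cultures but no arrays.

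The promoters of these genes are shown because neighboring Zic genes share their regulatory surroundings and because NKX2-1 is the factor removed in the mutant. Windows from 250 bases before to 50 bases after the annotated start were taken from RefSeq (GRCm38.p6), in which 3 of the 4 genes matched. They are Zic1 at chr9:91365719-91366018 on the minus strand, Zic4 at chr9:91368722-91369021 on the plus strand and Zic5 at chr14:122465609-122465908 on the minus strand. Zic2 did not match. Both strands were searched for the core of the NKX2-1 motif, CAAGTG, for the homeodomain core TAATTA, and for a ZIC core, CAGCAGG. No match of one sequence overlapped a match of another. Capitals mark a match.
Zic1: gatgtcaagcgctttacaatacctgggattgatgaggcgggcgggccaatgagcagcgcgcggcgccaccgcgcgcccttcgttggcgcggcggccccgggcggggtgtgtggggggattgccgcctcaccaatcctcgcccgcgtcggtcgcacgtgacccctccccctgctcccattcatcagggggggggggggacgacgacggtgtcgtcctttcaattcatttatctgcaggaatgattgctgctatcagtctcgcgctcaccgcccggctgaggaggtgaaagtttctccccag
Zic4: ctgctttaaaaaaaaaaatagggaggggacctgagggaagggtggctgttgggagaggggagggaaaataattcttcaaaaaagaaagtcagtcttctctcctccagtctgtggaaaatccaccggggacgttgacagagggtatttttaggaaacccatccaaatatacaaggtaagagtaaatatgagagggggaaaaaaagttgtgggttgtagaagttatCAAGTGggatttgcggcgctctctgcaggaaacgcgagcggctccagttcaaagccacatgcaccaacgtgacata
Zic5: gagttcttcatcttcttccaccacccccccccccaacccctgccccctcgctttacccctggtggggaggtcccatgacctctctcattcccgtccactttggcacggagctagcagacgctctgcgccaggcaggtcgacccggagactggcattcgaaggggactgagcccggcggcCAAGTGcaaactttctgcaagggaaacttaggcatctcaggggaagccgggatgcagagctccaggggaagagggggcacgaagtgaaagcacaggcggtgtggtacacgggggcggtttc
The window of Zic4 held CAAGTG with its first base 26 bases upstream of the start, and that of Zic5 held it 71 bases upstream. The window of Zic1 held none of the 3 sequences. Among all 32851 promoter windows of the same length, 13.6% held CAAGTG on either strand, 5.29% held TAATTA and 10.5% held CAGCAGG. A match of these letters is a description of the window and no evidence of binding.

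The loss of Nkx2-1 in the mutant was seen on the arrays. Levels are given as log2 signals relative to the 75th percentile of the array, so that 0 is the signal at that percentile, and levels of different probes are not compared. Nkx2-1, the homeobox gene that specifies the MGE, averaged 1.87 ± 0.06 (SD, n = 4) on WT arrays and -4.46 ± 0.19 (SD, n = 4) on cKO arrays, or 1.24% of the WT level. Its targets Lhx6 and Lhx8 fell by 4.20 and 3.67 on the log2 scale (adjusted p = 5.22e-07 and 5.24e-06, limma). The share of probes flagged well above background was 71.1% to 79.5% per array. WT replicate 1 read high over dim probes. With tested probes split by brightness into 5 equal groups, its median deviation from the other arrays was 1.18 in the dimmest, 0.37 in the next, 0.08 in the middle group and -0.04 in the brightest. WT replicate 4 had the highest level of mesenchymal genes. All 7 genes of a neural tissue list, among them the Dlx genes of the ventral forebrain, were tested, and their summed signal was 90.8 to 110 times the 75th percentile in WT and 96.3 to 114 times in the cKO, with none past the threshold (Dlx1 passed with quantile normalization, -0.45, adjusted p = 0.0192, limma).

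The mean of Zic1, Zic2 and Zic4 was lower in the cKO than in WT, and none of them passed the threshold. Tests covered the 31288 probes that exceeded background clearly on 4 or more of the 8 arrays. Of these, 1.04% differed, 0.422% higher and 0.614% lower in the cKO, at an adjusted p under 0.05 (limma, Benjamini-Hochberg over all tested probes), and 0 of the 3 tested Zic genes were among them. At an unadjusted p under 0.05, 3 of the 4 Zic probes were lower, those of Zic1 and Zic4, where 5.32% of all tested probes were lower and 3.32% higher. A log2 fold change, cKO over WT, is abbreviated log2FC, and its standard error SE. A lower mean alone was found in 57.5% of all tested probes. In bulk tissue, fewer cells that express a gene and less RNA per cell cannot be told apart.

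Zic1, which acts in medial forebrain progenitors and in the septum, was measured by 2 probes, brighter than 91.8% and 91.2% of tested probes. The brighter probe (A_52_P428654) read 3.64, 3.09, 2.94 and 2.76 in WT replicates 1 to 4 and 2.31, 2.47 and 2.87 in cKO replicates 2 to 4. The spot of cKO replicate 1 was flagged as an outlier by the scanner software, and its value of 2.83 was left out of the fit. The highest mutant array thus lay above the lowest WT array, and the other 2 mutant arrays lay below all of WT. WT arrays averaged 3.11 ± 0.38 (SD, n = 4) and cKO arrays 2.55 ± 0.29 (SD, n = 3), with a log2FC of -0.56 (SE 0.21, 95% interval -1.05 to -0.08, adjusted p = 0.496, limma). The exact two-sided permutation test gave p = 0.114.

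The other Zic1 probe (A_51_P194230) gave a difference of similar size. It read 3.35, 3.06, 2.77 and 2.74 in WT and 2.82, 2.15, 2.62 and 2.64 in the cKO. Here 3 of the 4 mutant arrays were below all WT arrays, and replicate 1 of the mutant lay between the WT values. The log2FC was -0.42 (SE 0.17, 95% interval -0.80 to -0.04, adjusted p = 0.528, limma), and the exact two-sided permutation test gave p = 0.0857. This probe passed the threshold with normexp background correction (-0.59, adjusted p = 0.0467, limma), in which the brighter probe did not (-0.63, adjusted p = 0.0982, limma). The mutant mean was 67.6% of WT on the brighter probe and 74.7% on this probe. The Zic1 difference was larger on slide 1 (-0.71 on the brighter and -0.66 on the other probe) than on slide 2 (-0.46 and -0.18). Each slide held 2 arrays of each group, but the brighter probe had 1 cKO value on slide 2, where the outlier spot lay. A difference between slides was not tested.

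Zic4, the divergent neighbor of Zic1, was the member whose groups did not overlap. It read -1.16, -1.51, -1.79 and -1.81 in WT and -1.86, -1.90, -2.52 and -1.91 in the cKO. The gap between the lowest WT and the highest mutant array was thus small, and the arrays at the ends were WT replicate 1 and cKO replicate 3. Such a separation, mutant below WT, was found in 4.13% of all tested probes. The log2FC was -0.48 (SE 0.19, 95% interval -0.91 to -0.05, adjusted p = 0.523, limma), from -1.57 ± 0.30 to -2.05 ± 0.32 (SD, n = 4 each), or 71.7% of the WT level. The exact two-sided permutation test gave p = 0.0286, the smallest that 4 arrays against 4 allow. The groups were also apart after quantile normalization, but they overlapped when arrays were centred on their median and after normexp background correction. Within slides the log2FC was -0.43 (slide 1) and -0.53 (slide 2). It was -0.34 without WT replicate 1, -0.32 without cKO replicate 3 and -0.26 with normexp. The median log2FC over all tested probes was 0.198 with normexp, against -0.041 in the main fit.

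**Figure D1:**
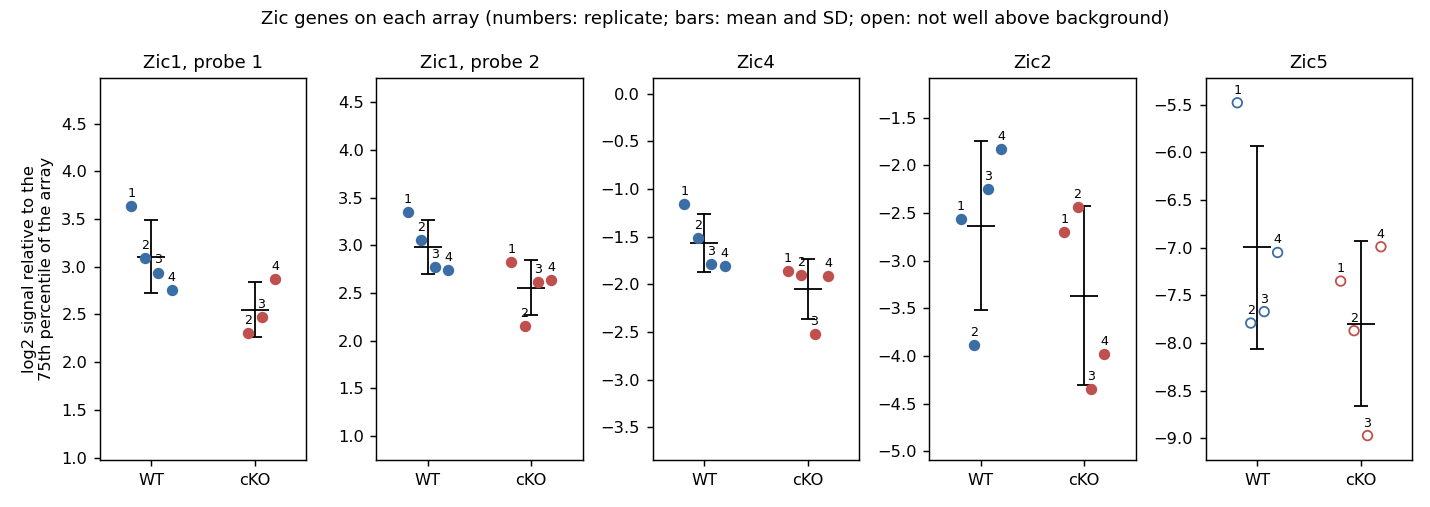
Log2 signal of each Zic probe relative to the 75th percentile of its array (y axis, a span of the same length in every panel), for WT and cKO arrays. Points are single arrays numbered by replicate, bars are mean and SD, and open points were not well above background. For Zic4 the groups do not overlap, Zic2 is spread widely in both groups, and Zic5 is not well above background on any array.

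Zic2, which is required for closure and patterning of the dorsal and medial forebrain, was the most variable of the tested members. It read -2.56, -3.89, -2.25 and -1.83 in WT and -2.70, -2.44, -4.35 and -3.98 in the cKO. WT replicate 2 and cKO replicates 3 and 4 were low, and the other 5 arrays lay between -2.70 and -1.83, so that the spread within each group was larger than the difference between them. WT arrays averaged -2.63 ± 0.89 and cKO arrays -3.37 ± 0.94 (SD, n = 4 each), with a log2FC of -0.73 (SE 0.52, 95% interval -1.90 to 0.43, adjusted p = 0.668, limma). The interval holds differences in both directions. The log2FC was -1.15 without WT replicate 2, -0.41 without cKO replicate 3 and -0.47 without WT replicate 4. With normexp it was -0.27, where the median over all tested probes was 0.198. The low arrays came from both slides. They were also the arrays with the highest summed signal of the 6 erythroid genes, 129 times the 75th percentile in WT replicate 2 and 132 and 140 times in cKO replicates 3 and 4, against 86.8 to 114 times in the others. This list was singled out among 15, as its mean log2 signal had the Pearson r with Zic2 farthest from 0 (-0.87 over 8 arrays). The part of these cells in the Zic2 values was not tested.

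Zic5, the neighbor of Zic2, was not well above background on any of the 8 arrays and was not tested. Its signal was between -7.79 and -5.48 in WT and between -8.97 and -6.99 in the cKO, and no fold is given.

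**Figure D2:**
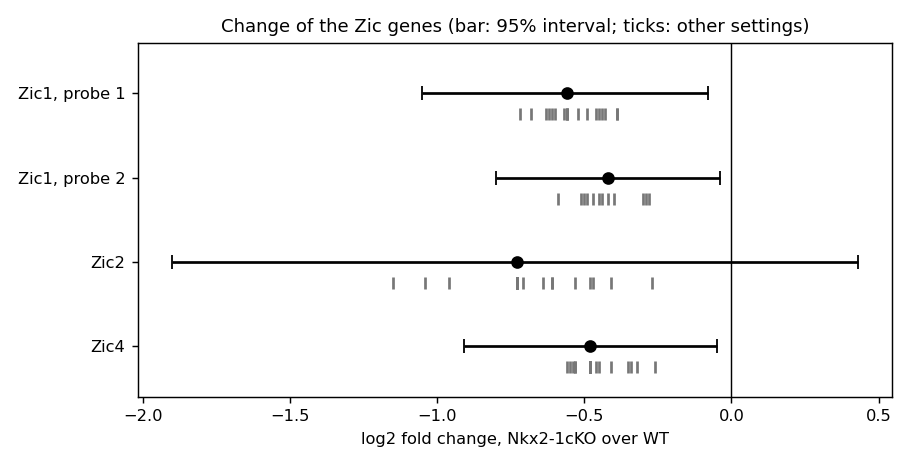
Log2 fold change of each tested Zic probe in the cKO over WT (x axis). Points and bars are the limma estimate and its 95% interval, and grey ticks are the estimates under the other settings that were run for that probe. All estimates lie below 0, and the interval of Zic2 reaches from -1.90 to 0.43.

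Whether members differed in their log2FC was tested on the difference of their log2 signals within each array. Between Zic1 and Zic4 this difference was 4.68 ± 0.11 in WT (SD, n = 4) and 4.66 ± 0.41 in the cKO (SD, n = 3), so that the log2FC of Zic1 minus that of Zic4 was -0.02 (exact two-sided permutation test, adjusted p = 0.943 over 3 pairs). The corresponding values were 0.39 for Zic1 minus Zic2 and -0.25 for Zic2 minus Zic4 (exact permutation, adjusted p = 0.943 for both). Pairs that hold Zic1 leave out cKO replicate 1 for both members, because its Zic1 spot was an outlier. Their values are thus not the differences of the log2FCs given above, in which Zic2 and Zic4 include that array. With 1 array left out, Zic1 minus Zic2 ranged from 0.01 to 1.09, the latter without cKO replicate 2. The SD within a group was 0.74 to 1.20 in the pairs that hold Zic2, so differences of this size were not detectable. The smallest p of the exact permutation test is 0.0286 with 4 arrays against 4, and fewer arrays allow none smaller. After adjustment over 3 pairs, no pair could thus pass the threshold alone, whatever its values. From array to array Zic1 and Zic4 varied together, with a Pearson r of 0.83 and a Spearman rho of 0.82 over 7 arrays for the brighter Zic1 probe and 0.67 and 0.86 over 8 arrays for the other. Without the 2 arrays whose Zic1 signal was farthest from the median, r was 0.96 and 0.78. Zic1 and Zic2 gave an r of 0.12 over 7 arrays. The points share the arrays' scaling and both groups, and these values are descriptions.

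Among 14449 genes with a symbol and a tested probe, those closest to each member over the arrays were found by Pearson r, again as a description. For Zic2 they were Clec16a (r = 0.978), Kbtbd2 (0.976) and D2hgdh (0.964), the last encoding D-2-hydroxyglutarate dehydrogenase. Each was lowest in the 3 arrays in which Zic2 was low. Clec16a read -0.61 in WT replicate 2 and -0.72 and -0.65 in cKO replicates 3 and 4, against -0.16 to 0.44 in the other 5 arrays. For Zic4 the closest were Fam228a (0.976), Plag1 (0.960) and Pirb (0.956), and for Zic1, over 7 arrays, Baat (0.981), Cfb (0.978) and Cage1 (0.978). These 6 read between -7.99 and -3.98, and all of them were highest in WT replicate 1, the array in which dim probes read high. Those closest to Zic4 were lowest in cKO replicate 3, and those closest to Zic1 in cKO replicate 2. The least like were Stoml1 (-0.987), Pmepa1 (-0.982) and Unc5a (-0.977) for Zic1, Crocc (-0.970), Prdm16 (-0.962) and Pde7a (-0.960) for Zic2, and Rtcb (-0.978), Ensa (-0.977) and Tnfrsf21 (-0.976) for Zic4.

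Genes of the tissues in which Zic genes are known to be expressed were followed in lists, against a median log2FC of -0.04 over every tested probe. That median was 0.198 with normexp, -0.004 without WT replicate 1 and -0.055 without WT replicate 4, and list medians in these settings are to be read against it. In a list of septal and rostral FGF signaling, 11 of 12 genes were tested, 9 averaged lower in the cKO and 1 passed the threshold, with a median log2FC of -0.32 that became -0.11 without WT replicate 1. The gene that passed was Etv1, an ETS factor induced by FGF signaling, with 1.87 ± 0.13 in WT against 0.36 ± 0.07 in the mutant (SD, n = 4 each), a log2FC of -1.51 (SE 0.09, adjusted p = 2.92e-05, limma), and its groups lay far apart. With normexp Etv1 kept this value, while 5 genes of the list had a lower mean and the median was 0.24. The summed signal of this list was 9.12 to 9.42 times the 75th percentile in WT and 6.31 to 6.80 times in the cKO, and without Etv1 the ranges overlapped (5.28 to 5.88 and 5.09 to 5.44). Of the ligands of the rostral patterning center, Fgf8 had -0.43 (adjusted p = 0.671, limma) and Fgf17, well above background on 4 arrays, had -0.66 (adjusted p = 0.710, limma). WT replicate 1 was the highest array for both, and without it Fgf8 had -0.11 and Fgf17 -0.05. With normexp they had 0.34 and 0.59.

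Among transcription factors of the septum and medial forebrain, the genes past the threshold were higher in the cKO. Of 12 genes 10 were tested, 3 rose and 0 fell, with a median log2FC of 0.14. Those that rose were Dbx1, a progenitor factor of septum and ventral pallium, by 2.26 (adjusted p = 0.00763, limma), Six3, a factor of rostral forebrain, by 0.99 (adjusted p = 0.00327, limma), and Vax1, a factor of the ventral midline, by 0.94 (adjusted p = 0.00879, limma). Their groups did not overlap, mutant above WT, as in 2.33% of all tested probes. The summed signal was 4.49 to 5.20 times the 75th percentile in WT and 6.34 to 7.70 times in the cKO, and for the 7 genes that did not pass it was 2.77 to 3.59 and 3.24 to 3.89 times. Six3 is also an LGE gene, and of 13 tested genes of a list of the LGE and CGE 8 rose and 0 fell, with a median log2FC of 0.95. Without WT replicate 4, or with centring on the median, 5 rose. Rarb, Zfp503, Ebf1 and Isl1 had the largest rises of that list, between 1.26 and 1.51.

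**Figure D3:**
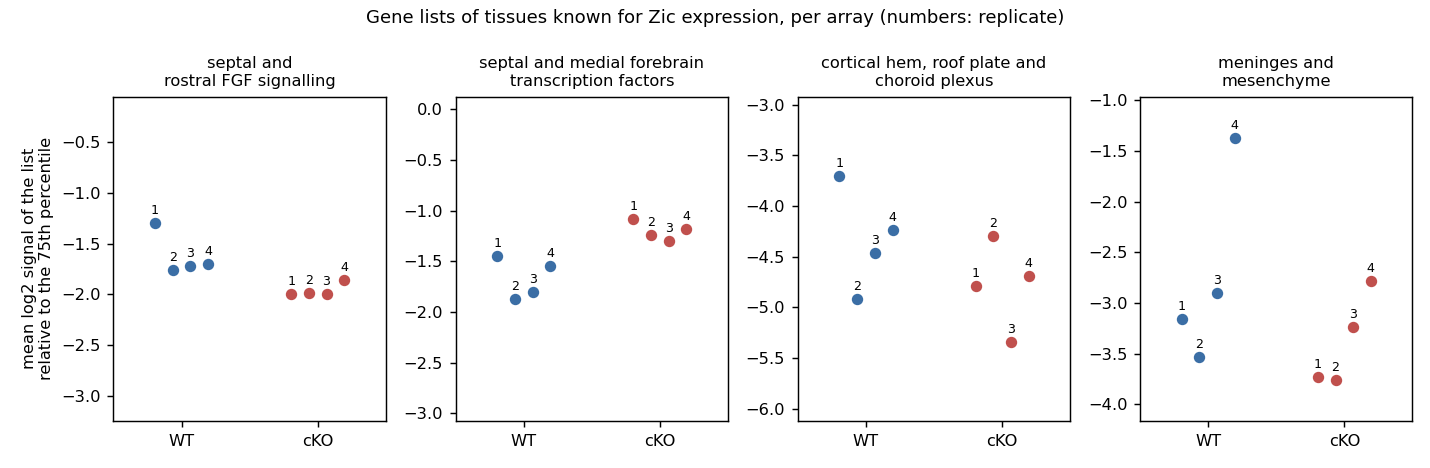
Mean log2 signal of the tested genes of 4 lists (y axis, relative to the 75th percentile, a span of the same length in every panel) on each WT and cKO array. Points are arrays numbered by replicate. The groups are apart for both septal lists, but they overlap without the genes past the threshold (means of -2.13 to -1.60 in WT and -2.24 to -2.08 in the cKO without Etv1, and -2.01 to -1.51 and -1.91 to -1.56 without Dbx1, Six3 and Vax1). WT replicate 4 stands above all other arrays in the mesenchymal list.

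The cortical hem, roof plate and choroid plexus are dorsal midline tissues known for Zic RNA. Of 16 genes 11 were tested, 7 averaged lower in the cKO and none passed. The median log2FC of -0.56 became -0.18 without WT replicate 1 and 0.51 with normexp. The hem markers Wnt3a and Wnt2b were well above background on 0 of the 8 arrays, Lmx1a on 1 and the choroid plexus marker Ttr on 2. Of the 11 tested genes, Wnt8b and Bmp6 were so on 6 arrays and the others, among them the choroid plexus gene Folr1, on all 8. The summed signal was 0.480 to 1.07 times the 75th percentile in WT and 0.417 to 0.956 times in the cKO. Bmp7, a BMP ligand, had the smallest p of the list, reading -3.59, -3.96, -4.28 and -2.30 in WT and -5.26, -5.13, -5.68 and -4.98 in the cKO, which makes a log2FC of -1.73 (SE 0.39, adjusted p = 0.0905, limma), and it had -0.36 with normexp. Wnt5a followed with -0.56 (adjusted p = 0.449, limma), and 0.29 with normexp. None of 9 genes of Cajal-Retzius neurons, which leave the hem and septum, passed, with a median of 0.08 and the smallest p for Lhx5 (0.21, adjusted p = 0.671, limma) and Lhx1 (0.17, adjusted p = 0.741, limma).

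Meninges and mesenchyme also express Zic genes. All 15 genes of that list with a matched probe were tested, 13 averaged lower in the cKO and none passed. The median log2FC of -0.48 became -0.14 without WT replicate 4 and 0.06 with normexp. The summed signal was 3.93, 3.67, 4.86 and 11.2 times the 75th percentile in WT replicates 1 to 4 and 3.41 to 4.57 times in the cKO. WT replicate 4, with the most mesenchymal signal, had the lowest WT value of Zic1 on both probes and of Zic4. WT replicate 3 was close to it, with 2.94 against 2.76 on the brighter Zic1 probe, 2.77 against 2.74 on the other and -1.79 against -1.81 for Zic4. Without WT replicate 4 the log2FC was -0.68 for the brighter Zic1 probe and -0.56 for Zic4, and it was -0.47 for Zic2, for which this array was the highest. Crabp2, which binds retinoic acid, had -0.75 (adjusted p = 0.231, limma) and Dcn, a proteoglycan of connective tissue, had -2.45 (SE 0.98, adjusted p = 0.526, limma). Without WT replicate 4 Dcn had -1.55, and with normexp Dcn had -1.06 and Crabp2 -0.36.

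Of the thalamic, prethalamic and hypothalamic list 8 of 11 genes were tested, with a median of -0.30 that became -0.11 without WT replicate 1 and 0.10 with normexp. Of these, Gbx2 fell by 3.07 (adjusted p = 5.24e-06, limma), and Tcf7l2, a mediator of Wnt signaling, rose by 0.99 (adjusted p = 0.00153, limma). Both are thalamic genes and Gbx2 is also known from the MGE, and Irx3, Irx5 and Otp were well above background on no array. Of the tested genes, Sim1 was so on 4 arrays, Foxb1 on 7 and the others on all 8. None of the tested genes passed among 10 of the pallium (median -0.10), 12 of ventricular zone progenitors (-0.04), 6 of the endothelium (0.01), 6 of erythroid cells (0.15) and 6 of microglia (0.02). The part of these tissues in the Zic differences was not tested.

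The GLI and GLIS genes, the closest relatives of the Zic family, were followed with their hedgehog partners. Of 15 genes 14 were tested, 3 rose and 2 fell, with a median log2FC of 0.07. Shh, the ligand, fell by 1.71 (SE 0.19, adjusted p = 0.00248, limma), and Hhip, an inhibitor that binds the ligand, fell by 1.59 (SE 0.24, adjusted p = 0.0112, limma). With normexp neither passed (-1.03 and -0.44, adjusted p = 0.631 and 0.847, limma), and Hhip did not pass without WT replicate 4 (-1.56, adjusted p = 0.0516, limma). Gli2, an activator of hedgehog targets, rose from -1.52 ± 0.23 to -0.61 ± 0.13 (SD, n = 4 each), a log2FC of 0.91 (SE 0.13, adjusted p = 0.00848, limma). The ligand-binding receptors Boc and Gas1 each rose by 0.77 (adjusted p = 0.0213 and 0.0399, limma). Gas1 did not pass without WT replicate 4 (adjusted p = 0.128, limma) or with normexp (0.289), nor did Boc with centring on the median (0.0656). Gli2 passed in each of these settings, with 0.90 to 1.04. Gli1, a target of the pathway, had -0.27 (adjusted p = 0.661, limma), and 0.29 with normexp, and Gli3, mainly a repressor, had 0.42 (adjusted p = 0.590, limma). The receptor Ptch1 had -0.12 (adjusted p = 0.905, limma). It had 0.02 with quantile normalization, 0.01 with centring on the median and 0.49 with normexp. The median over all tested probes was 0.02, 0.088 and 0.198 in these settings. The GLIS genes Glis1 and Glis2 had 0.09 and 0.06, the latter -0.03 with normexp. Within this superfamily Gli2 was thus past the threshold, while Zic1, Zic2 and Zic4 and the other tested GLI and GLIS genes were not, and whether Gli2 differs from them in its change was not tested.

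**Figure D4:**
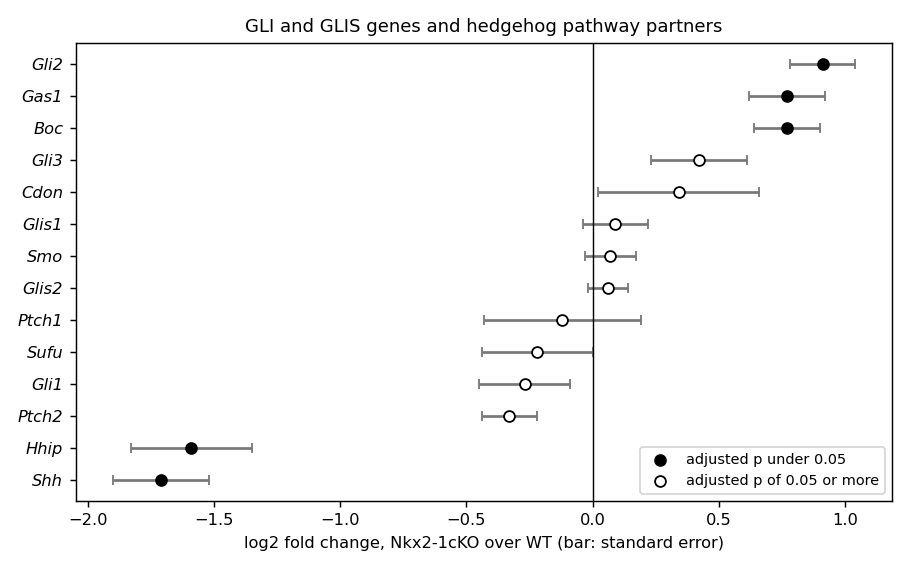
Log2 fold change in the cKO over WT (x axis) of the tested GLI and GLIS genes and hedgehog partners, with the limma standard error as bars. Filled points had an adjusted p under 0.05. Shh and Hhip lie at -1.71 and -1.59, and Gli2, Boc and Gas1 between 0.77 and 0.91.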

How the data were processed

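RNA of microdissected MGE was amplified, labelled with Cy3 and hybridised to Agilent whole mouse genome arrays, 1 sample per array. Files deposited by the authors come from Agilent Feature Extraction (version 10.7.3.1 per the file headers, 10.1 in the submitters' processing notes), in which each spot's intensity is background-subtracted and detrended within its array and not scaled between arrays, beside raw median intensity of spot and background. Processing after Feature Extraction is not given in the sources used here.

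Here control and outlier spots were left out, each array's 75th percentile was subtracted from its log2 intensity, and replicate spots were averaged. No spot was saturated. Of 41174 probes, 24844 matched a symbol by accession in a RefSeq table (GRCm38.p6). The 31288 probes above background on 4 or more of the 8 arrays (50 missing values) entered limma 3.58.1 (R 4.3.3, lmFit, then eBayes with trend). Benjamini-Hochberg adjusted p-values covered all of them, and the threshold was 0.05. Exact two-sided permutation tests were run per probe. For list genes the brightest tested probe was used. With 4 arrays a group, the number of arrays limits precision. The fit was tested on simulated data.

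Named are all Zic probes, the check genes Nkx2-1, Lhx6 and Lhx8, per list the genes past the threshold (up to 4 with the largest change, otherwise the 2 with the smallest p), and the 3 genes most and least like each member over the arrays. Fgf8, Fgf17, Gas1, Gli1, Gli3, Ptch1, Glis1, Glis2, Dlx1 and Dlx5 were named beyond this rule, after their values were seen. So were genes of the hem and thalamic lists given only with their arrays well above background, and the erythroid list set beside Zic2. The members and lists were chosen with earlier results of these data known. Alternatives were quantile, median and normexp processing (on median signals, as mean signals were not used here), filters on dim probes, a block for slide or for replicate number, eBayes without trend, array weights, the mean of probes, each array left out in turn and, chosen after seeing the data, outlier spots kept and the list counts under other scalings or without WT replicate 1 or 4, and list levels without the genes past the threshold. The main fit did not treat replicate numbers as pairs, and whether they pair the samples is not known. A few genes are not reported here.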

Additional observations from a re-analysis of the deposited data

Results flagged for a closer look

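Among the Zic probes and the genes named by rule, 1 of 79 groups of 4 arrays held an array that stood apart from its group, and about 4 would by chance. Zic4 read -2.52 in Nkx2-1cKO replicate 3, against -1.91 to -1.86 in the other mutant arrays, and the gap made up 0.935 of the range of the group. Without this array the log2 fold change of Zic4 was -0.32 (adjusted p = 0.941, limma), against -0.48 with it. This array also read low over the dimmest of 5 brightness groups of tested probes (median deviation -0.41). The deviation was -0.04 in the middle group, in which the Zic4 probe lies. Fam228a, Plag1 and Pirb, picked as closest to Zic4 over the same arrays, were lowest in this array too (-7.59, -7.99 and -6.76). The part of the shift of dim probes in this Zic4 value was not tested.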

How the results depend on the processing

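Zic1, Zic2 and Zic4 averaged lower in the Nkx2-1cKO in every alternative that was run, and none passed the threshold on its brightest probe. Across alternatives the log2 fold changes went from -0.72 to -0.39 for Zic1 (adjusted p 0.0982 to 0.916), from -1.15 to -0.27 for Zic2 (0.497 to 0.956) and from -0.56 to -0.26 for Zic4 (0.293 to 0.941), all limma. The values nearest 0 for Zic2 and Zic4, -0.27 and -0.26, came with normexp, which also gave the lowest adjusted p for Zic1. Under normexp the other Zic1 probe passed (-0.59, adjusted p = 0.0467, limma), the only alternative of the 12 run for it in which it did. Normexp moved the median of all tested probes from -0.041 to 0.198 and centring on the median moved it to 0.088. The brightest Zic1 probe gave no value under the filter for all 8 arrays because of its outlier spot, and Zic5, not well above background on any array, gave none.

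The replicate block gave -0.39 for Zic1, -0.73 for Zic2 and -0.48 for Zic4 and changed none of these calls. It left 8 higher and 65 lower probes in all. Arrays with the same number did not deviate together (correlations -0.481 to -0.194). The WT and the mutant array of each number lay on different slides, so these correlations cannot show whether the numbers pair the samples. With 1 array left out in turn Zic1 ranged from -0.72 to -0.39, Zic2 from -1.15 to -0.41 and Zic4 from -0.56 to -0.32. For Zic2 the difference was -1.15 without WT replicate 2, and -0.47 without WT replicate 4 and -0.41 without Nkx2-1cKO replicate 3.

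Over all probes, against 132 higher and 192 lower, centring on the median gave 115 lower, normexp 65 higher and 90 lower, slide as a block 208 higher, no variance trend 87 higher and array weights 291 lower. Leaving out arrays gave 65 to 118 higher and 130 to 174 lower. The difference in change between Zic1 and Zic4 turned to 0.02 with the mean of probes, and ranged from -0.19 to 0.20 with 1 array left out (0.02 without WT replicate 1 and 0.20 without Nkx2-1cKO replicate 2). That between Zic1 and Zic2 ranged from 0.01 to 1.09 and that between Zic2 and Zic4 from -0.69 to 0.09 (0.09 without WT replicate 4). The cause was not tested. Low signal limits Zic5, and spread between arrays limits Zic2.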

Other observations

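The arrays in which Zic2 was low also stood apart for Prdm16, a zinc finger regulator of neural stem cells and one of the 3 genes least like Zic2 (r = -0.962 over 8 arrays). Prdm16 read -0.46 in WT replicate 2 and 0.80 and 0.84 in Nkx2-1cKO replicates 3 and 4, against -3.44 to -2.14 in the other 5 arrays. Crocc, which encodes a protein of the ciliary rootlet, read 1.59 to 1.78 in these 3 arrays and 1.05 to 1.13 in the others (r = -0.970 with Zic2). These 3 arrays hold both genotypes and both slides, and they had the highest summed signal of erythroid genes (129 to 140 times the 75th percentile, against 86.8 to 114 times). The part of these cells in the pattern was not tested. Neither gene passed the threshold between the groups (adjusted p = 0.713 for Prdm16 and 0.740 for Crocc, limma). The genes were picked as extremes among 14449 over the same arrays, and the erythroid list as the extreme among 15 lists. No test was made.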
